A study of Mus musculus with 12 samples.

Results

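The clustered protocadherins are 3 neighboring gene families, *Pcdha* (alpha), *Pcdhb* (beta), and *Pcdhg* (gamma), whose members were chosen here by gene symbol. Of 51490 gene rows, 58 carried a symbol of one of the clusters, and 56 of these had at least 1 count in at least 1 of the 12 samples and were kept as members, 13 from the alpha, 21 from the beta, and 22 from the gamma cluster. *Pcdha1* and *Pcdhb1* had no count in any sample and were left out, whereas *Pcdhac1* and *Pcdha8*, with 1 count in 1 sample each, and *Pcdha6*, with 2 counts in 1 sample, were the members closest to that limit. On GRCm39, all of them lie on chromosome 18, with the alpha cluster at 37063237 to 37320716, the beta cluster at 37397991 to 37657532, and the gamma cluster at 37794846 to 37975014.

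RNA-seq had been performed on immortalized mouse embryonic palatal mesenchyme (iMEPM) cells, a line from a male *Cdkn2a*-/- embryo, so that every group carried this deletion. Cells stably expressed a scramble shRNA (scramble) or an shRNA against *Srsf3* (shSrsf3), which encodes an RNA-binding splicing factor, from a lentivirus that also encodes EGFP and puromycin resistance. After serum starvation, each line was harvested without ligand (-PDGF-AA) or after 1 h in 10 ng/mL of the growth factor PDGF-AA (+PDGF-AA), giving 4 groups of n = 3 replicates. Each shRNA was represented by 1 transduced, puromycin-selected, and sorted line used at passages 9 to 20, so that the effect of the shRNA cannot be told apart from other differences between both lines.

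Clustered protocadherins are calcium-dependent adhesion proteins of the cadherin superfamily, best known from neurons, in which each cell uses a small, partly random set of promoters, and matching sets on contacting membranes engage each other to mark self from non-self. In the alpha and gamma clusters, each promoter drives its own large first exon, which encodes the extracellular cadherin repeats and the membrane span, and this exon is spliced to constant exons that encode a cytoplasmic tail shared by the cluster. Beta genes have no such constant exons, and each encodes a complete protein from its own large exon. The C-type genes at the ends of the alpha and gamma clusters (*Pcdhac1*, *Pcdhac2*, *Pcdhgc3*, *Pcdhgc4*, and *Pcdhgc5*) are less alike in sequence to the remaining members and are often expressed in a steadier way.

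The total count per sample was between 30958870 and 76123207, and the median was lowest in the shSrsf3 +PDGF-AA group (32209725). *Srsf3* itself was at 206 ± 6.59 CPM (counts scaled to library size, SD, n = 3) in scramble and 162 ± 1.46 CPM in shSrsf3 cells without ligand, and at 222 ± 8.07 and 165 ± 4.33 CPM with ligand, with log2 fold changes of -0.34 ± 0.04 (SE) and -0.43 ± 0.04 (edgeR's quasi-likelihood test, adjusted p = 7.95e-06 and 9.54e-07), and the groups did not overlap. The 8 mesenchyme markers were all tested and summed to 22288 to 23818 CPM in every sample, mostly from *Col1a1* and *Vim*, but they were not steady between lines. Without ligand, *Pdgfra* (-0.53), *Prrx1* (-0.25), *Msx1* (-0.93), and *Osr2* (-0.82) fell and *Vim* (0.25) rose in shSrsf3 cells on the log2 scale, and with ligand *Msx1* fell by more than 2-fold (-1.10, adjusted p = 0.000878 by edgeR's test). Their part in the results below was not tested. The neuronal markers *Snap25* and *Elavl4*, of a list of 5, had no count in any sample. The 3 libraries with the lowest read mapping rates in the study's list were all scramble libraries, replicates 1 and 2 without ligand and replicate 2 with ligand. Leaving them out leaves replicate 3 alone as the scramble -PDGF-AA group. Each value below is built on expected counts, which split a read pair among all transcripts it could have come from. Of all 31-base sequences in a gene's transcripts, 45.6 to 90.7% in the alpha cluster (median 63.6%) and 34.5 to 67.8% in the gamma cluster (median 47.4%) also occurred in other genes, against 0 to 22.5% in the beta cluster (median 11.8%). Values of single alpha and gamma members therefore depend more on how reads are split than those of beta members. The uncertainty of this split was not measured, and low counts limit some members of each cluster apart from it.

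First, the level of each member was examined as CPM per kilobase of its longest protein-coding transcript, the scale on which genes can be compared with each other. One gamma gene, *Pcdhgc3*, stood above every other member at 82.4 ± 2.33 CPM per kilobase (SD over all 12 samples). The next gamma members were *Pcdhga3* at 11.1 ± 1.14, *Pcdhgc4* at 2.65 ± 2.01, and *Pcdhgc5* at 2.58 ± 0.512 CPM per kilobase, and the levels of *Pcdhgc4* and *Pcdhgc5* differed by less than their spread. These ranks pool the groups, and *Pcdhgc4* was at 3.56 and 4.08 CPM per kilobase in scramble and shSrsf3 cells without ligand but at 1.41 and 1.57 with ligand, under *Pcdhgc5* at 2.09 and 2.98. Among beta genes, *Pcdhb17* was highest at 9.43 ± 0.569 CPM per kilobase, followed by *Pcdhb20* at 3.25 ± 0.477 and *Pcdhb16* at 2.00 ± 0.383. The alpha cluster was close to silent, and its highest members were *Pcdha12* at 0.0275 ± 0.0341, *Pcdha9* at 0.0228 ± 0.0177, and *Pcdhac2* at 0.0157 ± 0.0142 CPM per kilobase, which did not differ beyond their spread. Summed on the CPM scale, the gamma cluster held 81.5 to 86.3% of all clustered protocadherin CPM in a sample, the beta cluster held 13.7 to 18.4%, and the alpha cluster held at most 0.150%. *Pcdhgc3* alone made up 68.4 to 76.8% of the gamma CPM, and *Pcdhb17* made up 37.2 to 47.5% of the beta CPM.

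**Figure D1:**
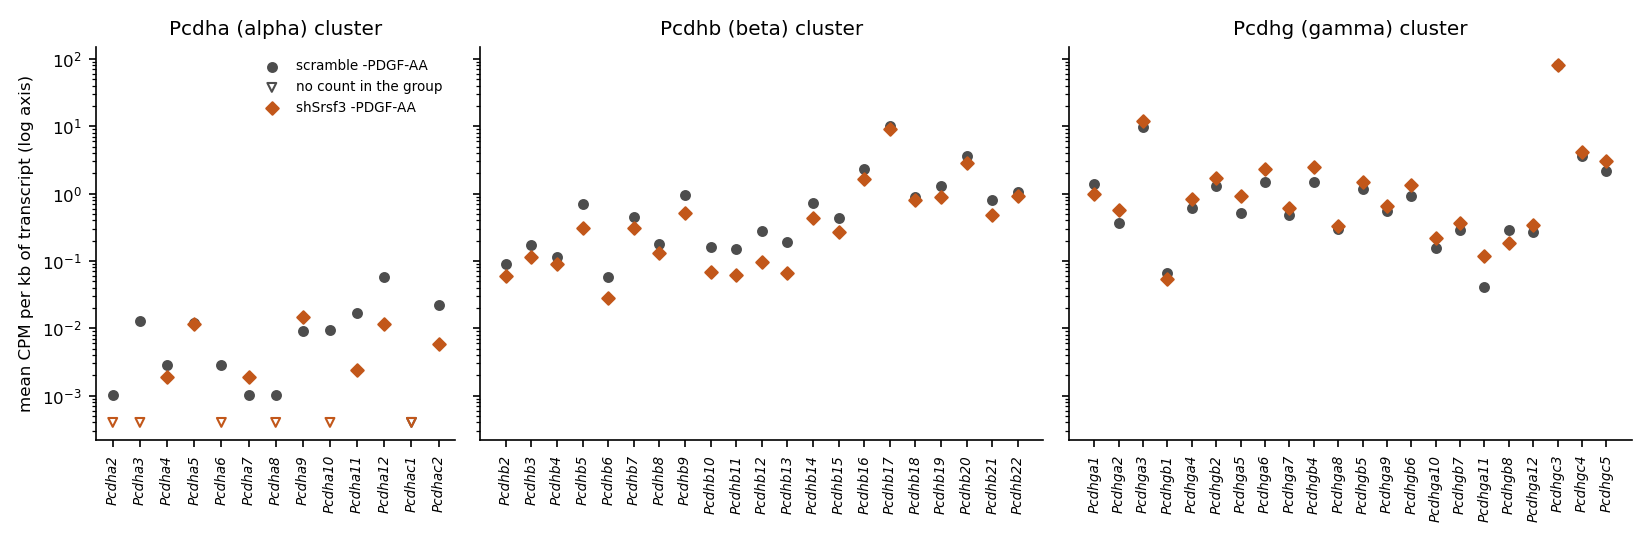
Mean expression (CPM per kilobase of transcript, log axis, n = 3) of the 56 members in genome order in scramble (circles) and shSrsf3 (diamonds) cells without ligand, with open triangles where a group had no count. *Pcdhgc3* is the highest point, most alpha genes lie lowest although *Pcdha12* in scramble cells (0.0574) is above a few beta and gamma points such as *Pcdhb6* (0.0568), and diamonds lie under circles for the beta genes and above them for most gamma genes.

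Next, scramble and shSrsf3 cells were compared without ligand, to see how expression of the clusters differed between the line with the *Srsf3* shRNA and its control line. Beta genes were lower in shSrsf3 cells and gamma genes were mostly higher. Of the 43 members with enough counts to test, 24 passed an adjusted p of 0.05 in edgeR's quasi-likelihood test, against 45.9% of all 15037 tested genes. In the beta cluster, 13 of 20 tested genes fell and 0 rose, where 23.7% of all tested genes fell, and the log2 fold change (shSrsf3 over scramble) was below 0 for 20 of 20, with a median of -0.62 (range -1.49 to -0.13). At an unadjusted p under 0.05, 16 of 20 beta genes passed, beside 7947 of all 15037 tested genes in either direction, and these beta genes also had log2 fold changes below 0. In the gamma cluster, 10 of 22 tested genes rose and 1 fell, where 22.2% of all tested genes rose, with a median of 0.37 (range -0.69 to 1.51). The median over all tested genes was -0.02. Differentially expressed (DE) genes, which also changed by at least 2-fold, made up 5.75% of all tested genes and 6 of the 43 members, namely *Pcdhb5*, *Pcdhb10*, *Pcdhb11*, *Pcdhb12*, and *Pcdhb13*, which were lower (2.76% of all tested genes), and *Pcdhga11*, which was higher (2.99%). Samples of both groups did not overlap for 13 beta genes, which were lower in shSrsf3 cells (27.1% of all tested genes), and for 14 gamma genes, of which 12 were higher (26.2%) and the other two, *Pcdhga1* and *Pcdhgb8*, lower. In these bulk samples, fewer cells that express a gene and less RNA per cell cannot be told apart.

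The same comparison with ligand gave a similar picture. Here 25 of 43 members passed in edgeR's test, against 41% of all tested genes. Of the beta genes, 11 fell (20.7% of all tested genes) and 0 rose, 20 of 20 had a log2 fold change below 0, and the median was -0.49 (range -1.51 to -0.00). Of the gamma genes, 14 rose (20.3% of all tested genes) and 0 fell, with a median of 0.50 (range -0.77 to 1.53), beside a median of -0.01 over all tested genes. DE genes made up 5.42% of all tested genes and 5 of the members, with *Pcdhb2*, *Pcdhb5*, *Pcdhb9*, and *Pcdhb12* lower (2.57%) and *Pcdhga11* higher (2.85%). Samples did not overlap for 17 beta genes, lower in shSrsf3 cells (27.1% of all tested genes), and for 16 gamma genes, higher in shSrsf3 cells (25.5%). Across both comparisons, 9 beta genes fell in both, 10 gamma genes rose in both, and 0 members passed in opposite directions. The share of all tested genes that passed in both was not computed. The comparisons use different samples of the same lines and a shared estimate of the spread, so that any difference between the lines recurs in both. The 37 tested members with at least 0.198 CPM in all 12 samples passed the filter on low counts irrespective of group. In contrast, *Pcdhb2* passed through scramble samples alone, so that a difference between lines was built into its selection. *Pcdhb10* reached this level in 5 scramble and 2 shSrsf3 samples, so that its selection also leaned on the scramble samples. *Pcdhga11* reached it in 3 scramble and 6 shSrsf3 samples, so that its selection leaned on the shSrsf3 samples, in which it was higher.

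**Figure D2:**
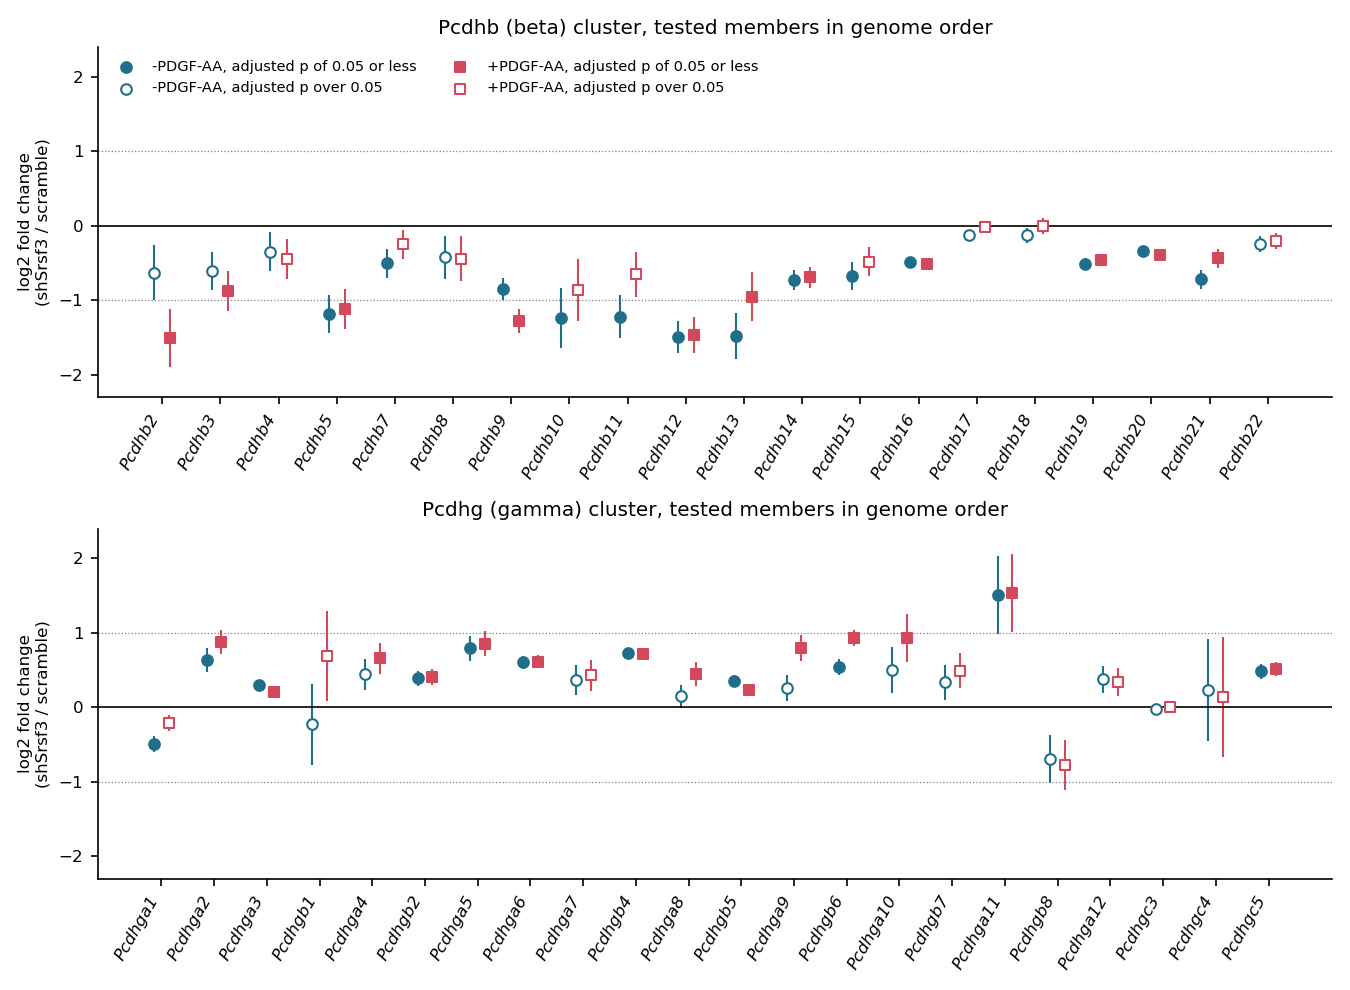
Log2 fold change (shSrsf3 over scramble, bars are SE) of each tested beta and gamma gene in genome order without (circles) and with (squares) ligand, filled where the gene passed an adjusted p of 0.05, with dotted lines at a 2-fold change. Every beta point lies at or below 0, lowest at *Pcdhb2* and *Pcdhb12*, and most gamma points lie above 0, highest at *Pcdhga11*.

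Without ligand, the beta genes with the largest changes, *Pcdhb10* to *Pcdhb13*, lay in the middle of their cluster. *Pcdhb5*, outside the middle, was at a log2 fold change of -1.19, close to *Pcdhb11* at -1.22. Of the 7 genes from *Pcdhb9* to *Pcdhb15*, 7 fell without ligand and 4 of these were DE, with a median log2 fold change of -1.22. The 6 tested genes from *Pcdhb2* to *Pcdhb8* had a median of -0.55, with 2 that fell and 1 that was DE. The 7 from *Pcdhb16* to *Pcdhb22* had a median of -0.35, with 4 that fell and 0 that were DE by edgeR's test. Of these 7, 6 had an unadjusted p under 0.05, beside 7947 of all 15037 tested genes. With ligand, the medians of the stretches were closer. From *Pcdhb9* to *Pcdhb15*, 4 of 7 genes fell and 2 were DE (median -0.86), and from *Pcdhb16* to *Pcdhb22*, 4 of 7 fell (median -0.40). From *Pcdhb2* to *Pcdhb8*, 3 of 6 fell and 2 were DE (median -0.66), with *Pcdhb2* the gene that fell most. *Pcdhb2* passed the filter on low counts through scramble samples alone, so that a fall was built into its selection. The stretch was not summarized without *Pcdhb2*. Levels differed between the stretches. Mean levels of the tested genes were 0.249 to 1.69 CPM from *Pcdhb2* to *Pcdhb8*, 0.321 to 5.14 CPM from *Pcdhb9* to *Pcdhb15*, and 2.97 to 43.9 CPM from *Pcdhb16* to *Pcdhb22*. The part of these levels in the result was not tested. Across the 20 beta genes, Spearman's rho of the log2 fold change with position was 0.31 without and 0.58 with ligand, and with level per kilobase it was 0.52 and 0.54. Position and level per kilobase were themselves related (rho 0.73), and genes are not independent replicates, so these values are descriptions. The borders of the stretches were not set by a stated rule, and other borders could give other medians.

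Among the individual beta genes, *Pcdhb12* was at 0.909, 0.805, and 0.845 CPM in the scramble samples and 0.350, 0.273, and 0.268 CPM in the shSrsf3 samples without ligand. With ligand, the values were 0.747, 0.656, and 0.835 CPM against 0.267, 0.279, and 0.257 CPM. Every shSrsf3 sample was thus lower than every scramble sample. The log2 fold changes were -1.49 ± 0.22 (SE, 2.81-fold lower) without and -1.47 ± 0.24 (2.77-fold lower) with ligand (edgeR's test, adjusted p = 9.07e-05 and 0.000247), from 8 to 54 counts per sample.

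*Pcdhb5* was at 2.86, 2.39, and 2.22 CPM in scramble and 1.07, 1.21, and 0.940 CPM in shSrsf3 samples without ligand. In +PDGF-AA samples, the values were 2.49, 2.09, and 2.01 CPM against 1.31, 1.24, and 0.451 CPM. The groups did not overlap in either condition, and 1 shSrsf3 +PDGF-AA sample was lower than the remaining ones. The log2 fold changes were -1.19 ± 0.25 and -1.12 ± 0.27 (edgeR's test, adjusted p = 0.00170 and 0.00427). Without that sample, replicate 3, the second value was -0.78 and no longer reached 2-fold.

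*Pcdhb9*, the called beta gene with the highest counts, was at 3.40, 2.51, and 2.70 CPM in scramble and 1.68, 1.49, and 1.58 CPM in shSrsf3 samples without ligand. With ligand, the scramble samples were at 2.91, 3.17, and 3.01 CPM and the shSrsf3 samples at 1.42, 1.30, and 0.998 CPM. The 6 scramble samples were all above the 6 shSrsf3 samples. The log2 fold change was -0.85 ± 0.15 without ligand (edgeR's test, adjusted p = 0.000449), under the 2-fold minimum, and -1.28 ± 0.16 with ligand (adjusted p = 2.52e-05). The difference between these changes was -0.43 ± 0.22 with an adjusted p of 0.874 for the interaction in edgeR's test, so the ligand was not shown to alter the effect.

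*Pcdhb13* was at 0.675, 0.805, and 0.613 CPM in scramble and 0.311, 0.182, and 0.242 CPM in shSrsf3 samples without ligand, and *Pcdhb11* was at 0.831, 0.621, and 0.514 against 0.246, 0.334, and 0.242 CPM. With ligand, *Pcdhb13* was at 0.548, 0.656, and 0.433 against 0.214, 0.217, and 0.418 CPM. Samples of *Pcdhb11* with ligand were at 0.498, 0.478, and 0.742 against 0.428, 0.372, and 0.290 CPM. In both genes, the scramble samples lay above the shSrsf3 samples in either condition, with a narrow gap upon stimulation. Without ligand, the log2 fold changes were -1.48 ± 0.31 for *Pcdhb13* and -1.22 ± 0.29 for *Pcdhb11* (edgeR's test, adjusted p = 0.00151 and 0.00399). With ligand, they were -0.95 ± 0.33 and -0.65 ± 0.30 (adjusted p = 0.0337 and 0.103), and the adjusted p of *Pcdhb13* ranged from 0.0132 to 0.138 over the alternatives, highest without shSrsf3 replicate 1. When the 3 scramble libraries with the lowest mapping rates were left out, the log2 fold change of *Pcdhb11* without ligand was -0.89, against scramble replicate 3 alone.

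Both remaining DE beta genes rested on few counts, and they passed the filter on low counts mostly (*Pcdhb10*) or only (*Pcdhb2*) through scramble samples. *Pcdhb10*, with 5 to 32 counts per sample, was at 0.182, 0.644, and 0.530 CPM in scramble and 0.194, 0.197, and 0.188 CPM in shSrsf3 samples without ligand. The lowest scramble sample lay below every shSrsf3 sample, against the direction of the change, so these groups overlapped. The log2 fold change was nevertheless -1.24 ± 0.40 (edgeR's test, adjusted p = 0.0209). With ligand, it was at 0.482, 0.390, and 0.371 CPM in scramble and 0.321, 0.155, and 0.193 CPM in shSrsf3 samples, without overlap (-0.86 ± 0.42, adjusted p = 0.121). The call without ligand was lost when scramble replicate 2 or 3 or any shSrsf3 replicate of this condition was left out, at adjusted p values up to 0.107. *Pcdhb2*, with 2 to 27 counts, was at 0.448, 0.425, and 0.402 CPM in scramble and 0.187, 0.186, and 0.0644 CPM in shSrsf3 samples with ligand. These groups were well apart, with a log2 fold change of -1.51 ± 0.39 (edgeR's test, adjusted p = 0.00677). However, a difference in this direction was built into the selection of *Pcdhb2*. Without ligand, *Pcdhb2* was at 0.182, 0.207, and 0.381 CPM against 0.181, 0.167, and 0.161 CPM, with the lowest scramble and the highest shSrsf3 sample nearly equal (-0.63 ± 0.37, adjusted p = 0.180).

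The beta genes with the highest levels changed less. *Pcdhb17* was at 47.7, 48.7, and 42.5 CPM in scramble and 42.3, 41.7, and 42.8 CPM in shSrsf3 samples without ligand. Upon stimulation, the values were 41.3, 47.2, and 43.0 CPM against 44.4, 44.8, and 40.8 CPM. The groups overlapped in both conditions, with log2 fold changes of -0.13 ± 0.06 and -0.02 ± 0.06 (edgeR's test, adjusted p = 0.0922 and 0.851). *Pcdhb20* and *Pcdhb16* fell by less than 2-fold. *Pcdhb20* was at 13.1 ± 1.11 CPM in scramble and 10.3 ± 0.453 CPM in shSrsf3 cells without ligand and at 13.1 ± 0.763 and 9.88 ± 0.549 CPM with ligand (SD, n = 3), with log2 fold changes of -0.35 ± 0.07 and -0.40 ± 0.07 (adjusted p = 0.00155 and 0.000714). *Pcdhb16* was at 11.9 ± 0.900 and 8.46 ± 0.0513 CPM without and at 12.6 ± 0.551 and 8.85 ± 0.906 CPM with ligand, with -0.49 ± 0.07 and -0.51 ± 0.08 (adjusted p = 0.000126 and 0.000125). Neither gene had an overlap between lines in either condition. When the 3 libraries of lower mapping rate were left out, *Pcdhb20* was at -0.23 without ligand, against scramble replicate 3 alone. *Pcdhb6*, the beta member that was not tested, had 2 to 11 counts per sample.

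In the gamma cluster, 12 A-type and 7 B-type genes share the constant exons with the 3 C-type genes. Without ligand, 5 A-type genes rose and 1 fell, 4 B-type genes rose, and 1 C-type gene rose, where 22.2% of all tested genes rose. With ligand, 9 A-type, 4 B-type, and 1 C-type gene rose, where 20.3% of all tested genes did, so that the share of 1 in 3 C-type genes was not far from that of all genes. Apart from *Pcdhga11*, these changes were under 2-fold. *Pcdhga3*, the A-type gene with the highest level, was at 48.3, 45.2, and 47.8 CPM in scramble and 59.5, 58.0, and 57.0 CPM in shSrsf3 samples without ligand. With ligand, it was at 52.2, 51.9, and 49.4 CPM against 61.6, 60.7, and 54.1 CPM. Every shSrsf3 sample was higher than every scramble sample, at log2 fold changes of 0.31 ± 0.05 and 0.20 ± 0.05 (edgeR's test, adjusted p = 0.000251 and 0.00584).

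Among gamma genes named after their values were seen, *Pcdhgb4* had the smallest p of the cluster in both conditions. It was at 6.44, 7.24, and 7.71 CPM in scramble and 11.9, 12.1, and 11.8 CPM in shSrsf3 samples without ligand, and at 7.29, 6.82, and 6.75 CPM against 11.8, 10.8, and 11.6 CPM with ligand. The lines were far apart relative to their spread, with log2 fold changes of 0.73 ± 0.07 and 0.72 ± 0.07 (edgeR's test, adjusted p = 1.48e-06 and 2.40e-06). *Pcdhga1*, the first gene of the cluster, was the gamma gene that fell without ligand. It was at 7.38, 6.92, and 5.78 CPM in scramble and 4.62, 4.94, and 4.62 CPM in shSrsf3 samples, with a log2 fold change of -0.49 ± 0.11 (adjusted p = 0.00181). With ligand, the values were 6.53, 5.74, and 5.21 CPM against 5.37, 4.80, and 4.86 CPM and overlapped (-0.21 ± 0.11, adjusted p = 0.135).

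*Pcdhga11* was the DE gene of the gamma cluster in both conditions, at 5 to 53 counts per sample, and its passing of the filter on low counts leaned on the shSrsf3 samples. It was at 0.182, 0.115, and 0.298 CPM in scramble and 0.686, 0.668, and 0.376 CPM in shSrsf3 samples without ligand. Upon stimulation, the values were 0.149, 0.248, and 0.247 CPM against 0.374, 0.279, and 1.26 CPM. The groups did not overlap, but a single shSrsf3 +PDGF-AA sample was far above the remaining ones. The log2 fold changes were 1.51 ± 0.52 and 1.53 ± 0.53 (edgeR's test, adjusted p = 0.0298 and 0.0319). Without that sample, replicate 3, the value with ligand was 0.61 with an adjusted p of 0.344, and the call was also lost without scramble replicate 1, 2, or 3 (adjusted p of 0.0540 to 0.101). Without ligand, the call was lost when scramble replicate 1 or 2 or shSrsf3 replicate 1 or 2 was left out (adjusted p up to 0.106). When the 3 libraries of lower mapping rate were left out, the value without ligand was 0.98, against scramble replicate 3 alone.

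Of the 3 gamma C-type genes, *Pcdhgc5* passed the test between lines, and *Pcdhgc3* and *Pcdhgc4* did not. *Pcdhgc3* was at 399, 383, and 385 CPM in scramble and 378, 380, and 391 CPM in shSrsf3 samples without ligand. With ligand, it was at 395, 415, and 392 CPM against 407, 401, and 394 CPM. These groups overlapped, and at 12229 to 29198 counts per sample the log2 fold changes were -0.02 ± 0.03 and -0.00 ± 0.03 (edgeR's test, adjusted p = 0.601 and 0.986). *Pcdhgc5*, known mainly from the brain, rose in both conditions. It was at 9.27, 12.2, and 10.6 CPM in scramble and 14.2, 13.9, and 16.99 CPM in shSrsf3 samples without ligand, and at 10.9, 9.52, and 10.2 CPM against 14.5, 14.8, and 14.4 CPM with ligand. The shSrsf3 samples were above all scramble samples, with log2 fold changes of 0.48 ± 0.09 and 0.51 ± 0.10 (adjusted p = 0.00100 and 0.000754).

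*Pcdhgc4*, the gamma isoform that supports neuron survival, varied more between replicates than between groups. It had 622, 1562, and 289 counts in scramble and 2150, 1347, and 630 counts in shSrsf3 samples without ligand. With ligand, it had 94, 625, and 643 counts against 116, 613, and 91 counts. On the CPM scale, these are 16.2, 35.9, and 4.79 against 27.8, 20.5, and 16.9 CPM without and 1.56, 11.1, and 9.94 against 3.10, 18.99, and 2.93 CPM with ligand. All groups overlapped, and the log2 fold changes of 0.23 ± 0.69 and 0.13 ± 0.80 did not pass (edgeR's test, adjusted p = 0.810 and 0.915). Of the 31-base sequences of this gene, 37.4% also occur in other genes, and the part of read splitting in its spread was not tested.

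**Figure D3:**
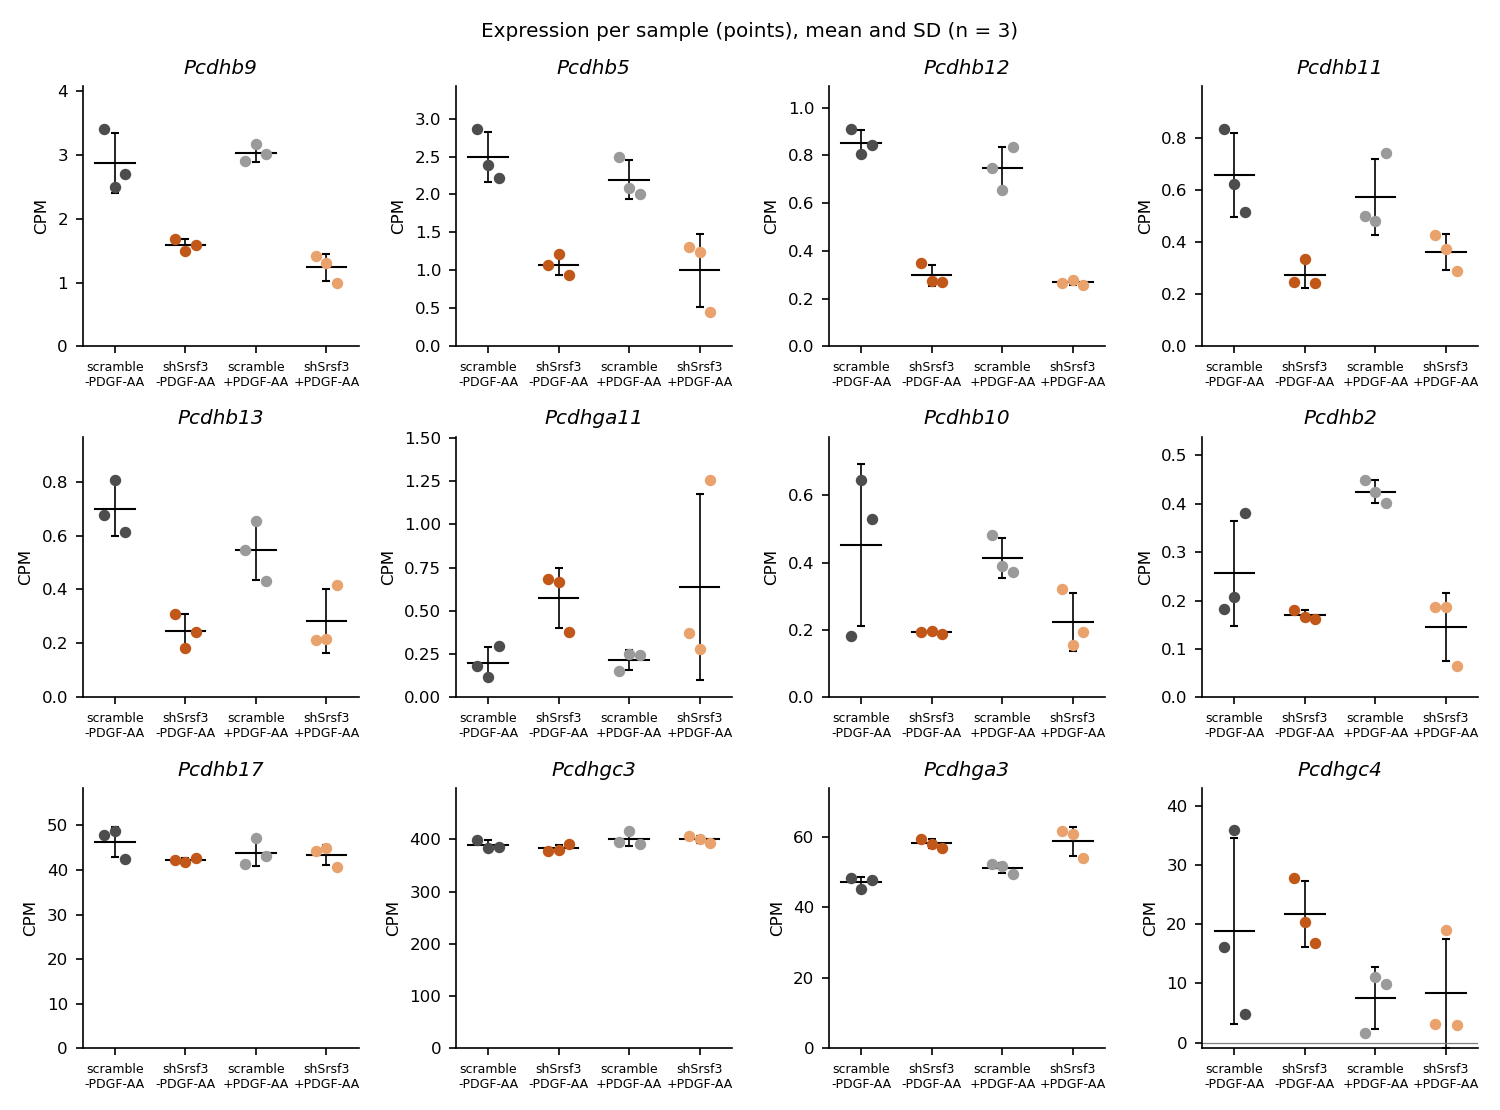
Expression (CPM, linear axis from 0 or from the lower end of the SD bar) in each sample for the 8 DE members and for *Pcdhb17*, *Pcdhgc3*, *Pcdhga3*, and *Pcdhgc4*, with mean and SD (n = 3). The 7 DE beta genes have lower means in shSrsf3 samples, although without ligand *Pcdhb10* overlaps between lines and *Pcdhb2* nearly does. *Pcdhga11* is higher with 1 sample at 1.26 CPM, and *Pcdhgc4* ranges from 1.56 to 35.9 CPM.

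The alpha cluster was near the detection limit. Its 13 members together had 8 to 54 counts per sample, and 1 of them, *Pcdha9*, could be tested. *Pcdha9* had 0, 2, and 6 counts in scramble and 3, 6, and 4 counts in shSrsf3 samples without ligand. With ligand, it had 17, 11, and 15 counts against 1, 8, and 3 counts. The lines overlapped on the CPM scale in both conditions, with log2 fold changes of 0.40 ± 0.81 and -0.96 ± 0.63 (edgeR's test, adjusted p = 0.714 and 0.247). *Pcdha12* had 5, 30, and 6 counts in scramble and 8, 2, and 2 counts in shSrsf3 samples without ligand and 10, 5, and 10 against 8, 0, and 1 counts with ligand, so that 1 scramble library held 30 of its 87 counts. *Pcdha3*, named after its values were seen, had 2, 6, and 1 counts and 5, 8, and 5 counts in the scramble samples without and with ligand and 0 in all 6 shSrsf3 samples. In a single library, a count of 0 allows up to 3 counts, which corresponds to 0.0394 to 0.0969 CPM, and covers counting error alone. Of the C-type genes, *Pcdhac2* had 0 to 17 counts per sample and *Pcdhac1* had 1 count in 1 shSrsf3 +PDGF-AA sample. The summed alpha CPM was 0.546, 0.966, and 0.895 in scramble and 0.246, 0.349, and 0.215 in shSrsf3 samples without ligand, and 0.731, 0.780, and 0.726 against 0.428, 0.558, and 0.290 with ligand. These sums did not overlap between lines, and they rest on 8 to 54 counts.

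To place the clusters side by side, the CPM of all members of a cluster were summed in each sample, as a description without a test. The beta sum was 120, 115, and 109.6 CPM in scramble and 90.6, 90.7, and 90.2 CPM in shSrsf3 samples without ligand. With ligand, it was 111, 117, and 112 CPM against 97.2, 96.9, and 85.8 CPM. The means were 21.3 and 17.7% lower in shSrsf3 cells, without overlap. The gamma sum was 532, 529, and 506 CPM in scramble and 552, 547, and 558 CPM in shSrsf3 samples without ligand, a mean 5.80% higher, whereas with ligand the groups of 515, 542, and 514 CPM and 566, 571, and 541 CPM overlapped. Without *Pcdhgc3* and *Pcdhgc4*, which did not pass the test and were left out after their values were seen, the gamma sum went from 114 ± 4.00 to 148 ± 1.83 CPM without and from 115 ± 2.95 to 151 ± 5.55 CPM with ligand (SD, n = 3), 29.6 and 30.8% higher, and a larger difference than in the full sum follows from that choice. The ratio of beta to gamma CPM was 0.216 to 0.226 in the 6 scramble samples and 0.159 to 0.172 in the 6 shSrsf3 samples. The sum over all 3 clusters was 638 ± 18.7 and 643 ± 4.93 CPM without ligand and 638 ± 19.4 and 653 ± 22.5 CPM with ligand in scramble and shSrsf3 cells, and these groups overlapped.

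**Figure D4:**
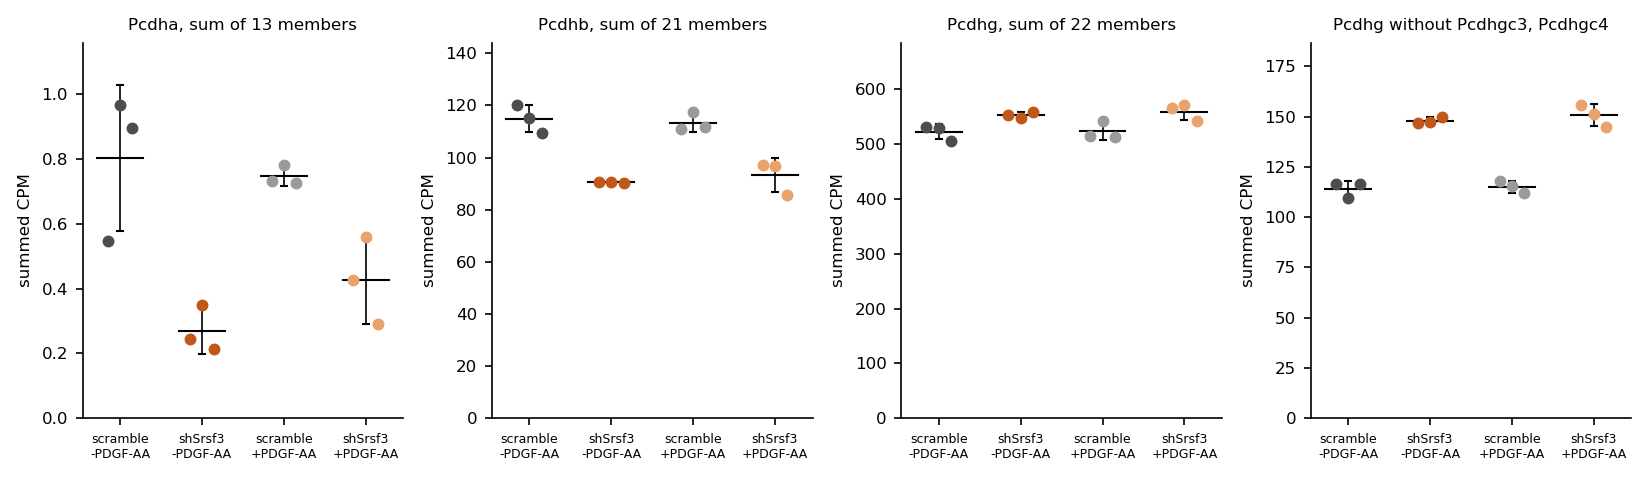
Summed CPM per sample of the alpha, beta, and gamma clusters and of the gamma cluster without *Pcdhgc3* and *Pcdhgc4*, with mean and SD (n = 3, linear axes from 0). The alpha and beta sums are lower in shSrsf3 cells, and the gamma sum without the 2 genes, which were left out after their values were seen, is higher, at 145 to 156 CPM against 109.5 to 118 CPM.

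PDGF-AA treatment for 1 h was then examined within each line. In scramble cells, 0 of 43 members were DE or passed an adjusted p of 0.05 (edgeR and DESeq2), where 0.2 and 4.04% of all tested genes did by edgeR. Of the members, 2, *Pcdha9* and *Pcdhga3*, had an unadjusted p under 0.05, beside 2643 of all 15037 tested genes. *Pcdha9* had a log2 fold change of 2.06 ± 0.67 (edgeR's test, adjusted p = 0.115) and *Pcdhga3* of 0.12 ± 0.05 (adjusted p = 0.229). In shSrsf3 cells, 0 members were DE or passed by either tool, where 0.0399 and 0.565% of all tested genes did by edgeR. There, 1 member, *Pcdhgb6*, had an unadjusted p under 0.05 (0.30 ± 0.10, adjusted p = 0.305 by edgeR's test), beside 1420 of all 15037 tested genes. The median change of beta genes was 0.04 in scramble and 0.07 in shSrsf3 cells, and that of gamma genes was -0.07 and 0.07. The *Pcdhgc4* values of -1.31 ± 0.74 and -1.41 ± 0.76 were the largest decreases, with overlapping groups (adjusted p = 0.379 and 0.616). Samples did not overlap for 3 members in scramble cells (18.8% of all tested genes), *Pcdha9*, *Pcdhb2*, and *Pcdhga3*, which were higher with ligand, and for 2 in shSrsf3 cells (18%), *Pcdhgc3*, which was higher, and *Pcdhb9*, which was lower. Both ligand comparisons share samples with the comparisons between lines. For the interaction of knockdown and ligand, 0 members passed by either tool, where 0.0133% of all tested genes did by edgeR's test. *Pcdhga9* and *Pcdhgb6* had an unadjusted p under 0.05 for it, beside 833 of all 15037 tested genes, with differences of 0.54 ± 0.25 and 0.39 ± 0.15 (adjusted p = 0.874 for each in edgeR's test).

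Genes known to act on or with the clusters, and genes that flank or lie between them, were examined as 4 lists. The changes between lines that passed edgeR's test were under 2-fold. The counts below stand beside shares of 45.9% without and 41% with ligand among all tested genes in either direction, and 6 and 5 of 11, 5 and 4 of 11, 5 and 8 of 15, and 3 and 4 of 12 genes of the lists passed. In the list of 11 genes of chromatin architecture, which bring a distant enhancer to the chosen promoter, 2 rose and 4 fell without and 2 rose and 3 fell with ligand in shSrsf3 cells, with medians of -0.06 and -0.07. *Rad21*, the kleisin subunit of cohesin, rose from 193 ± 2.63 to 239.6 ± 3.99 CPM without ligand (log2 fold change 0.31, adjusted p = 1.56e-05 by edgeR's test) and by 0.38 with ligand (adjusted p = 2.49e-06). The alternative cohesin subunits *Stag1* and *Stag2* fell in both conditions (-0.19 and -0.24, and -0.20 and -0.20), and *Pds5a*, a cohesin regulator, rose (0.21 and 0.17), with adjusted p values of 0.000203 to 0.00802.

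Of 11 silencing genes, 3 rose and 2 fell without and 2 rose and 2 fell with ligand (medians -0.02 and -0.00). The maintenance DNA methyltransferase *Dnmt1* rose by 0.24 and 0.21 on the log2 scale (edgeR's test, adjusted p = 0.000797 and 0.00228) and *Uhrf1*, its recruiting factor, by 0.20 and 0.17 (adjusted p = 0.000609 and 0.00281). The corepressor *Trim28* was at -0.09 without (adjusted p = 0.0681) and -0.16 with ligand (adjusted p = 0.00408). *Lrif1*, a partner of the silencing protein Smchd1, was at -0.28 without (adjusted p = 0.00551) and -0.03 with ligand (adjusted p = 0.754). Neither gene was shown to differ between conditions, with interactions of -0.07 ± 0.05 for *Trim28* and 0.25 ± 0.10 for *Lrif1* (adjusted p = 0.882 and 0.874 in edgeR's test).

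Among 15 genes of signaling partners and cleavage, 2 rose and 3 fell without and 3 rose and 5 fell with ligand (medians -0.05 and -0.06). *Ret*, a receptor tyrosine kinase that binds clustered protocadherins, was at 15.5 ± 1.22 and 10.5 ± 0.346 CPM in scramble and shSrsf3 cells without ligand and 15.4 ± 0.543 and 9.10 ± 0.751 CPM with ligand, with log2 fold changes of -0.56 and -0.75 (edgeR's test, adjusted p = 2.16e-05 and 2.12e-06). *Adam10*, a metalloprotease that sheds their extracellular part, fell by 0.26 and 0.21 on the log2 scale (adjusted p = 4.03e-05 and 0.000275). *Ptk2b*, which encodes the kinase Pyk2 that their tails inhibit, changed by -0.15 and -0.12 (adjusted p = 0.00472 and 0.0242). *Wasf1*, of the actin-regulating WAVE complex, was at -0.02 without (adjusted p = 0.832) and 0.30 with ligand (adjusted p = 0.00884), and the interaction of 0.33 ± 0.11 did not pass (adjusted p = 0.835).

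Of 15 listed and 12 tested genes that flank or lie between the clusters, 2 rose and 1 fell without and 2 rose and 2 fell with ligand (medians -0.02 and 0.04). *Diaph1*, an actin-nucleating formin gene next to the gamma cluster, rose by 0.32 and 0.34 (edgeR's test, adjusted p = 1.10e-05 and 7.24e-06), and *Fchsd1*, farther along the chromosome, changed by -0.27 and -0.31 (adjusted p = 0.00136 and 0.000705). *Wdr55*, on the alpha side, rose by 0.19 and 0.28 (adjusted p = 0.0251 and 0.00386). *Taf7*, which lies between the beta and gamma clusters and encodes a subunit of the general transcription factor TFIID, was at -0.17 and -0.22 (adjusted p = 0.114 and 0.0493).

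Markers of other cell types were measured beside these results. The 5 neuronal markers summed to 26.3 to 29.3 CPM in scramble and 17.4 to 22.9 CPM in shSrsf3 samples, nearly all from *Tubb3*, the 1 gene of this list that could be tested, and 2 of 5 had no count in any sample. *Tubb3* was at 26.9 ± 0.766 and 18.05 ± 0.693 CPM in scramble and shSrsf3 cells without ligand (log2 fold change -0.57, adjusted p = 2.63e-06 by edgeR's test). The 5 epithelial markers summed to 4.75 to 6.15 CPM against 2.86 to 4.15 CPM and the 4 endothelial markers to 30.5 to 34.6 CPM against 19.1 to 22.6 CPM, of which *Tek*, a receptor of endothelial cells, contributed 30.6 ± 1.46 and 20.0 ± 0.421 CPM without ligand. The other endothelial genes did not follow *Tek*, as *Cdh5* rose by 2.33 and 2.82 and *Kdr* by 1.24 and 0.91 on the log2 scale without and with ligand, and *Pecam1* did not pass. The glial markers *Sox10* and *Foxd3* had no count in any sample, and the glial, blood, and muscle lists summed to at most 3.22, 1.68, and 0.579 CPM. Among the tested epithelial genes, *Cdh1* changed by -2.24 and -1.95 on the log2 scale without and with ligand, and *Epcam* and *Trp63* did not pass. The neuronal, epithelial, and endothelial sums were lower in shSrsf3 samples, as the beta genes were, mainly through *Tubb3*, *Cdh1*, and *Tek*. Their part in the beta result was not tested. The glial sums overlapped between lines, the blood sums were lower without ligand and overlapped with it, and the muscle sum was higher in shSrsf3 samples (0.228 to 0.414 against 0.104 to 0.207 CPM without ligand and 0.347 to 0.579 against 0.116 to 0.248 CPM with it). Libraries were stranded, and 11 antisense genes overlap 18 members. Of the 9 with a row in the table, *BC037039*, which overlaps *Pcdhgc3*, had 87 to 228 counts, and the remaining ones had at most 1 count in any sample.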

How the data were processed

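Stranded polyA libraries of 12 samples were sequenced by the authors, and groups and replicate numbers were taken from the labels. Per the study's methods, replicates were independent biological replicates of 1 line per shRNA. Read pairs had been trimmed (BBDuk) and assigned to the transcripts of GENCODE M26 (GRCm39) by Salmon 1.4.0. The authors then summed transcripts to genes in tximport, and their deposited table holds expected counts that are not scaled to library size. How tximport scaled counts is not given in the sources used here.

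Expected counts were rounded, filtered (filterByExpr, minimum count 10, 15037 genes kept), and scaled with TMM factors, which also underlie CPM. The quasi-likelihood test of edgeR 4.0.16 was fitted on all 12 samples with 1 mean per group, with Benjamini-Hochberg adjustment over all tested genes. DE genes passed an adjusted p of 0.05 and changed by at least 2-fold. For the interaction, no fold minimum was used. Standard errors were derived from the fold change and the F statistic. Exact permutation tests of 3 against 3 samples cannot go below p = 0.1 and were not used. The test was checked on simulated data. Alternatives were DESeq2 1.42.0, other size factors, no filter, a replicate block, a fit on the compared groups, leaving out each replicate or the 3 libraries of lower mapping rate, no fold minimum, and thinning to 30958870 counts, the last chosen after seeing the data.

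GENCODE M39 (GRCm39), which is later than the authors' annotation, gave transcript lengths, positions, and shared 31-base sequences. Named members were those that were DE in any comparison, the 3 with the highest level per kilobase in each cluster, the C-type genes, and up to 4 genes with the smallest p per list. The members, lists, and rules were chosen with earlier results of these data known. Within a group, all replicate pairs differed by more than counting noise. Tables and plots were made in R 4.3.3 and Python 3.11.15 (matplotlib 3.10.9, scipy 1.17.1, numpy 2.4.6, pandas 2.3.3).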

Additional observations from a re-analysis of the deposited data

How the results depend on the processing

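DE members numbered 6 without and 5 with ligand between scramble and shSrsf3 cells. Without a fold minimum, the numbers were 24 and 25. Without the 3 libraries of lower mapping rate, 8 members were DE with ligand, with *Pcdha5*, *Pcdhga5*, and *Pcdhga10* added. Without ligand, this setting leaves scramble replicate 3 alone in its group, so that no number is given. Leaving out 1 replicate gave 4 to 7 in either comparison, and the gamma genes it added went in both directions. *Pcdhgb1* was lower without shSrsf3 -PDGF-AA replicate 1 (log2 fold change -1.44), and *Pcdhgb8* was lower without shSrsf3 +PDGF-AA replicate 1 (-1.42). *Pcdhga2*, *Pcdhga5*, and *Pcdhga10* were added as higher. Upon stimulation of scramble cells, leaving out 1 replicate gave 0 to 1 (*Pcdha9*, without scramble -PDGF-AA replicate 3), and without the filter on low counts 2 members were DE in scramble (*Pcdha9* and *Pcdhgc4*) and 1 in shSrsf3 cells (*Pcdhgc4*). Between lines, leaving out the filter gave 9 and 7, the added members being alpha genes. The cause of these differences was not tested. With the replicate number as a block, 6 and 5 members were DE and 0 in the ligand comparisons and the interaction. The numbers were not taken as pairs, since 2 of 18 same-number pairs of samples had a correlation of their deviations over 0.1, and 5 of 12 samples correlated best with their own number. Under the block, the adjusted p of *Pcdhb13* with ligand was 0.0553. DESeq2, median-of-ratios size factors, a fit on the compared groups, and thinning gave 6 and 5 again, although with thinning *Pcdhb9* replaced *Pcdhb10* without ligand, and with ligand *Pcdhb13* was added while *Pcdhb2* was not tested. Of the 24 and 25 members that passed at an adjusted p of 0.05, 16 and 17 passed under every setting, and 0 changed sign under any. The median log2 fold change of beta genes stayed between -0.69 and -0.53 without and -0.62 and -0.49 with ligand, and that of gamma genes between 0.32 and 0.48 and between 0.46 and 0.56. The alpha genes had at most 30 counts in a sample, *Pcdhb2* 27, *Pcdhb10* 32, and *Pcdhga11* 53, and *Pcdhb12*, which kept its calls, had 54.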
